A study of Mus musculus with 6 samples.

Results

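The genes described here are 10 transcripts that are widely used to read out ERK signalling, and that mostly feed back on it. They are the Sprouty genes Spry1, Spry2 and Spry4, the Spred genes Spred1 and Spred2, the dual specificity phosphatase genes Dusp4, Dusp5 and Dusp6, and the ETS factor genes Etv4 and Etv5. They were chosen by name from the known pathway, with earlier results of these data already known. They make up 10 of the 54232 genes in the count table, of which 28552 had a read in at least 1 library. RNA-Seq was performed on primary mouse uterine stromal cells (mUSCs) taken on day 4, when the uterus is receptive to the blastocyst. There were 3 libraries labelled WT and 3 labelled Pbrm1 cKO, all from mice aged 8 to 12 weeks.

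Pbrm1 encodes a subunit of the PBAF form of the SWI/SNF chromatin remodeler. In the cKO (Pbrm1 fl/fl with PR IRES-cre/+), Cre is driven from the progesterone receptor locus, so that recombination is directed to PR-expressing cells of the uterus, epithelium as well as stroma. The control libraries are labelled WT, whereas the study describes Pbrm1 fl/fl littermates as its controls, so whether the controls carried the floxed allele cannot be told from the labels. The protocol, which is worded alike for all 6 libraries, pools 5 to 10 uterine horns of pseudopregnant females for a preparation, while the labels also speak of pregnancy. Cells of both groups were plated for 4 hours in medium with charcoal-stripped serum and then kept for 2 hours in fresh medium with serum before RNA was taken. Serum is itself a stimulus of the ERK pathway, and both groups received it. The study speaks of biological replicates, but the labels do not state which animals a library came from, so the p-values below measure the spread between these 6 libraries.

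ERK (extracellular signal-regulated kinase) is the last kinase of the Ras-Raf-MEK cascade, which growth factor receptors such as the FGF receptors switch on. Active ERK induces its own inhibitors: Sprouty and Spred proteins act upstream at the receptor, Ras and Raf, and dual specificity phosphatases remove the activating phosphates from ERK itself. Etv4 and Etv5 are transcription factors of the PEA3 group of ETS proteins, induced by FGF signalling in many tissues. The study examined FGF and ERK signalling between stroma and epithelium in uteri without PBRM1. The comparison here asks at what level the stromal cells held the feedback transcripts. ERK activity was not measured in these libraries.

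The libraries held 13253575 to 18338667 assigned reads, and 3 reads correspond to 0.164 to 0.226 CPM (counts scaled to library size). Pbrm1 itself was at 1354, 1385 and 1677 normalized counts in WT, against at 397, 459 and 451 in Pbrm1 cKO, which is 29.6% of the WT mean (log2 fold change -1.76, SE 0.13, DESeq2 adjusted p = 5.19e-40). No library pair within a group was as close as sampling noise alone would make it, the nearest being Pbrm1 cKO replicates 1 and 2, whose median chi-square was 1.55 times that of sampling noise. A high share of all genes differed between the groups: DESeq2 called 31.1% of 17474 tested genes at an adjusted p below 0.05, 15.9% higher and 15.2% lower in Pbrm1 cKO. Among tested genes with a mean count in the range of these 10 transcripts (101 to 3002), 41.0% were called. The 2 groups did not overlap for 48.6% of tested genes. Stromal markers were abundant in every library, but leukocyte markers were far higher in all Pbrm1 cKO libraries, as given below. In bulk RNA, fewer cells of a type and less RNA per cell cannot be told apart.

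Of the 10 feedback transcripts, 6 were higher in Pbrm1 cKO and none was lower. The 3 Sprouty genes rose 1.92- to 2.35-fold, Dusp4 and Dusp5 rose 2.27- and 3.47-fold, and Spred2 rose 1.52-fold. Spred1, Dusp6, Etv4 and Etv5 were not called. All 10 passed DESeq2's filter on low counts. The median log2 fold change was 0.77 over the 10 transcripts and 0 over all genes tested. The edgeR quasi-likelihood test also called 6 higher and 0 lower, and at an unadjusted p below 0.05 the DESeq2 counts were 7 higher and 0 lower. Tested against a log2 fold change of 0.58 with a threshold of 0.1, 4 were higher and 0 lower. Spry1 and Spred2 were the genes lost there.

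**Figure D1:**
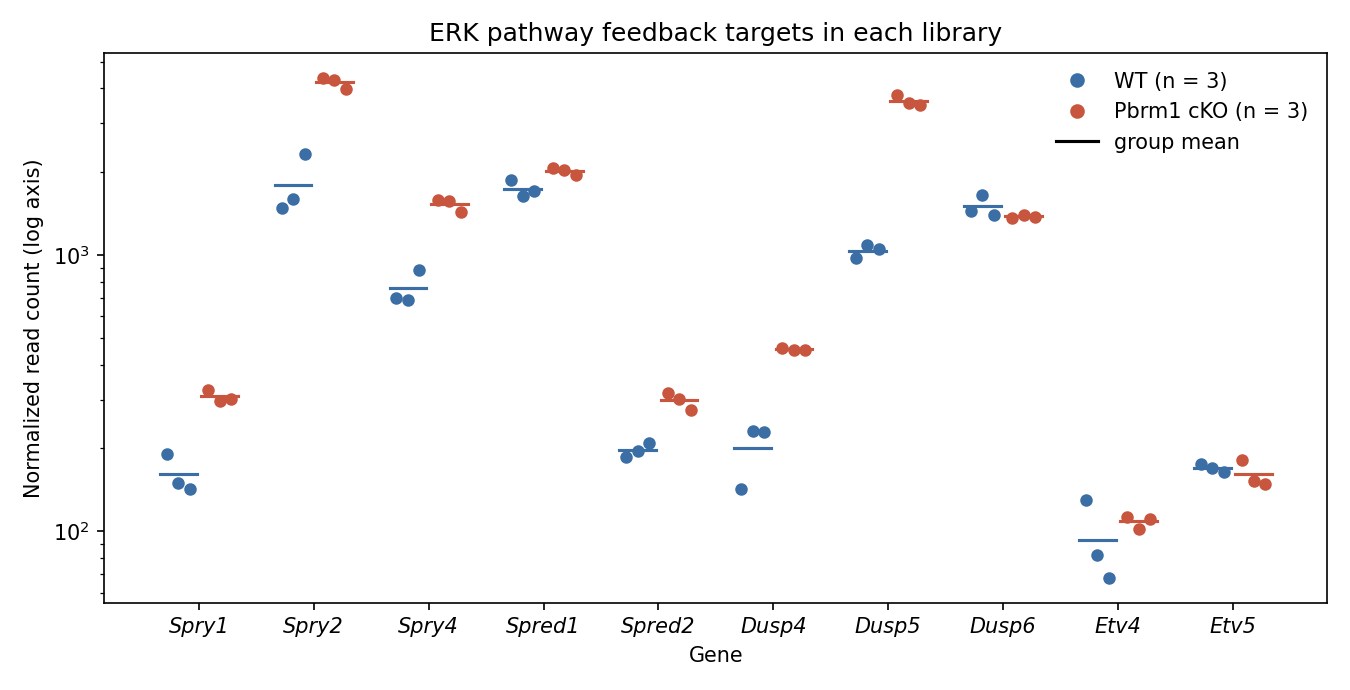
Normalized read counts (log axis) of the 10 transcripts in each of the 3 WT and 3 Pbrm1 cKO libraries, with lines at the group means. For Spry1, Spry2, Spry4, Spred1, Spred2, Dusp4 and Dusp5 every Pbrm1 cKO point lies above every WT point; for Dusp6 every one lies below, and for Etv4 and Etv5 the groups overlap.

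The regions next to the start sites of Dusp5, which rose most, and of its close relative Dusp6, which was not called, are printed here so that the pair can be compared. Sequences were taken from the RefSeq promoter table (GRCm38.p6), which had 8 promoters for 7 of the 10 genes; Spry4, Dusp4 and Etv4 had no entry. The Dusp5 stretch is chr19:53528895-53529108 on the plus strand and ends where the gene model used for counting begins, and the Dusp6 stretch is chr10:99262981-99263230 on the plus strand. Capitals mark matches to the motifs described after the sequences.
Dusp5: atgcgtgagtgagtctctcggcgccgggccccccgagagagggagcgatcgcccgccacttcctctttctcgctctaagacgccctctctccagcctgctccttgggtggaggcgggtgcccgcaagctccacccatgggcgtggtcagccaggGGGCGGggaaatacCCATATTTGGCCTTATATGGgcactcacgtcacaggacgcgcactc
Dusp6: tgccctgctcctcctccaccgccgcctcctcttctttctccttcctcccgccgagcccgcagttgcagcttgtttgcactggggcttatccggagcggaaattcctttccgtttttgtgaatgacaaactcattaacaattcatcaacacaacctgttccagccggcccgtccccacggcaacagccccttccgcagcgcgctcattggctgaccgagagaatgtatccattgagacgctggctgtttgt

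Both are rich in G and C, at 65.0% for Dusp5 and 56.4% for Dusp6, against a median of 52.4% over the 250 bases before the start of 32851 promoters. The capitals in Dusp5 are a GC box and, directly after a short gap, 2 CArG boxes side by side. A GC box (GGGCGG on either strand) is bound by SP factors, and a CArG box, a serum response factor (SRF) motif that reads alike on both strands, holds 6 bases of A or T between CC and GG. The 2 CArG boxes begin 82 and 72 bases before the RefSeq start of Dusp5. A CArG box was found in 1.47% of all promoters, and among the 7 feedback genes with an entry in Dusp5 alone. Only 6 of all promoters, or 0.0183%, held 2 or more, Dusp5 included. These letters were searched after the Dusp5 sequence had been read, so the match is a description of that sequence.

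The GC box, present in 32.7% of all promoters, was found in 5 of the 8 promoters of the feedback genes, those of Spry1, Spred1, Spred2, Dusp5 and 1 of the 2 of Etv5. These letters did not divide the genes by their change, since Spry2 rose without these letters and Spred1 and Etv5 held them and were not called. None of these 8 promoters matched the long ETS motif CCGGAAGT (3.89% of all promoters), the AP-1 motif TGANTCA (7.81%) or the CRE TGACGTCA (1.79%), searched on both strands over 300 bases. The shorter ETS core CCGGAA (12.0%), which lies within the long one, and TATAAA (12.4%) were not matched in the 250 bases before the start either. The absence of a match says only that these letters are not in the windows searched.

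Sprouty proteins are intracellular inhibitors that are induced by receptor signalling and restrain activation of Ras and Raf. Spry2 (ENSMUSG00000022114.5, chr14:105891947-105896819, minus strand of GRCm38) had 1472, 1587 and 2322 normalized counts in WT, against 4364, 4274 and 3992 in Pbrm1 cKO. WT replicate 3 was the highest WT library, and still lay well under every Pbrm1 cKO library. The means were 1794 ± 461 and 4210 ± 194 (SD, n = 3 each), a log2 fold change of 1.23 (SE 0.16, DESeq2 adjusted p = 5.09e-13). Without WT replicate 3 the log2 fold change was 1.46.

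Spry4 (ENSMUSG00000024427.6, chr18:38586268-38601268, minus strand) had 697, 689 and 885 normalized counts in WT, against 1574, 1563 and 1432 in Pbrm1 cKO. As for Spry2, the highest WT library was replicate 3 and the groups did not overlap. Its log2 fold change was 1.01 (SE 0.13, DESeq2 adjusted p = 6.43e-14). Spry1 (ENSMUSG00000037211.12, chr3:37639947-37644598, plus strand), the least abundant of the Sprouty genes, had 190, 150 and 142 normalized counts in WT, against 326, 297 and 302 in Pbrm1 cKO. Here WT replicate 1 was highest, and the groups were again apart. This gave a log2 fold change of 0.94 (SE 0.17, DESeq2 adjusted p = 3.5e-07).

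Measured per length, as RPKM (reads per kilobase of transcript, scaled to library size), Spry2 stood far above the other Sprouty genes in both groups. It was at 58.2 ± 15 RPKM in WT and 138 ± 5.32 in Pbrm1 cKO, against 11.2 and 22.8 for Spry4 and 3.74 and 7.28 for Spry1. The summed Sprouty level was 62.3, 65.4 and 91.7 RPKM in WT and 174, 170 and 161 in Pbrm1 cKO. Spry2 made up 79.2% ± 2.86 of that sum in WT and 82.2% ± 0.0496 in Pbrm1 cKO, and the shares of the groups overlapped (exact permutation test, two-sided p = 0.3, n = 3 each). The Spry4 share was 15.4% ± 1.12 in WT and 13.5% ± 0.143 in Pbrm1 cKO, lower in every Pbrm1 cKO library (p = 0.1 by the same exact test), and the Spry1 share was 5.35% and 4.32%, with overlapping groups. Without WT replicate 1 or WT replicate 3, the difference in share was 1.57 or 4.43 points for Spry2 (2.95 with all libraries) and -0.155 or -1.9 points for Spry1 (-1.03 with all libraries). With 3 libraries a group the smallest p this test can give is 0.1, so no share could pass 0.05.

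**Figure D2:**
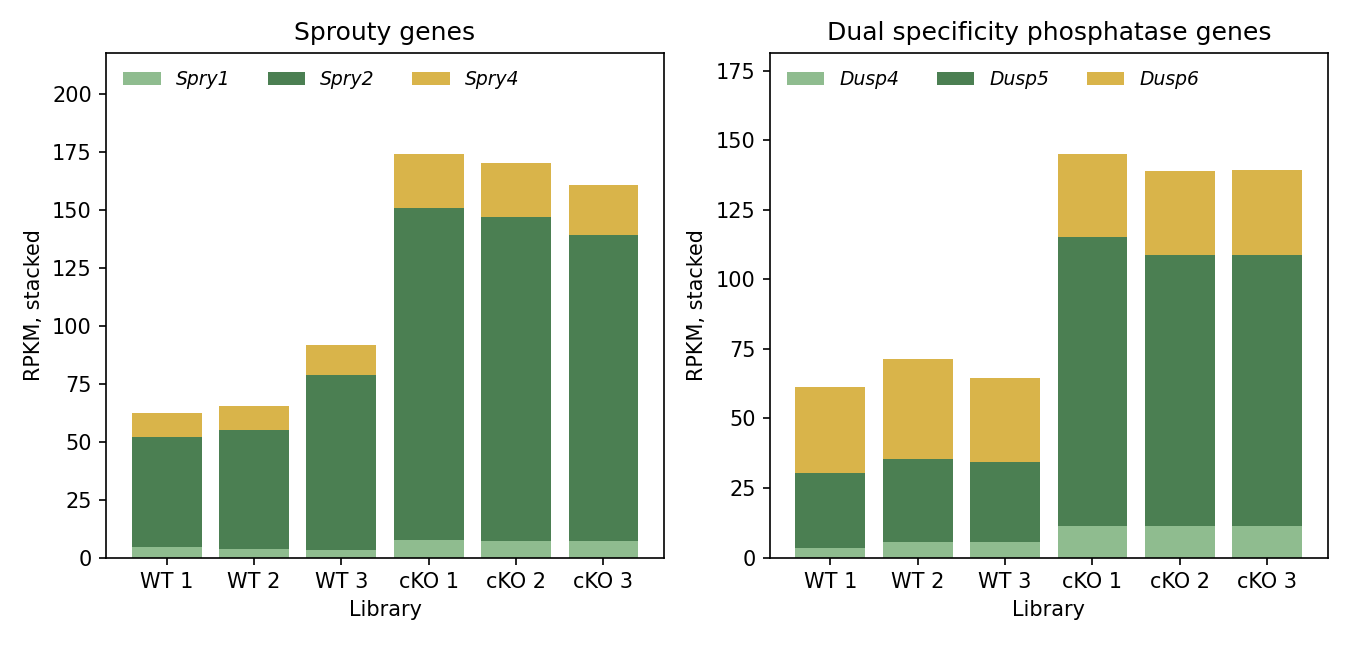
Stacked RPKM of the 3 Sprouty genes (left) and of the 3 phosphatase genes (right) in each library. The Sprouty bars grow from at most 91.7 in WT to at least 161 in Pbrm1 cKO with Spry2 as the main part throughout; in the phosphatase bars the Dusp5 part widens while the Dusp6 part stays between 29.7 and 35.8 RPKM.

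Spred proteins are relatives of Sprouty that bind neurofibromin and hold back Ras. Spred2 (ENSMUSG00000045671.17, chr11:19924375-20024026, plus strand) had 186, 195 and 209 normalized counts in WT, against 318, 302 and 276 in Pbrm1 cKO. The libraries of each group lay close together and the groups were apart. Spred2 thereby had a log2 fold change of 0.60 (SE 0.15, DESeq2 adjusted p = 0.000454). Spred1 (ENSMUSG00000027351.14, chr2:117121374-117182279, plus strand) had 1870, 1637 and 1702 normalized counts in WT, against 2067, 2024 and 1946 in Pbrm1 cKO.

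Every Pbrm1 cKO library was thus above every WT library for Spred1, but the difference was small. Its log2 fold change was 0.21 with a 95% confidence interval of 0.03 to 0.40, and it was not called (DESeq2 adjusted p = 0.0745). The call depended on a library and on the test. Without WT replicate 1, the highest WT library, the log2 fold change was 0.27 and the adjusted p was 0.00895, and with all 6 libraries limma voom gave 0.22 and an adjusted p of 0.0473. Spred1 was the more abundant Spred gene in both groups, at 17.3 RPKM in WT and 20.3 in Pbrm1 cKO, against 2.88 and 4.43 for Spred2. The Spred2 share of the summed Spred level was 14.3% ± 1.36 in WT and 17.9% ± 0.599 in Pbrm1 cKO, and the shares of the groups did not overlap (exact permutation test, two-sided p = 0.1, n = 3 each).

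Dual specificity phosphatases (MAP kinase phosphatases) dephosphorylate ERK. DUSP5 and DUSP4 act in the nucleus, DUSP5 on ERK and DUSP4 on ERK and other MAP kinases, whereas DUSP6 acts on ERK in the cytoplasm. The transcripts for the nuclear enzymes rose and that for the cytoplasmic enzyme was not called. Dusp5 (ENSMUSG00000034765.6, chr19:53529109-53542431, plus strand) had 977, 1083 and 1049 normalized counts in WT, against 3780, 3531 and 3478 in Pbrm1 cKO. The lowest Pbrm1 cKO library was over 3 times the highest WT library. The means were 1036 ± 54.2 and 3596 ± 161 (SD, n = 3 each), a log2 fold change of 1.80 (SE 0.09, 95% confidence interval 1.61 to 1.98, DESeq2 adjusted p = 4.78e-80). The log2 fold change stayed between 1.75 and 1.82 under all 14 other settings tried.

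Dusp4 (ENSMUSG00000031530.6, chr8:34807297-34819894, plus strand) had 143, 231 and 228 normalized counts in WT, against 459, 455 and 455 in Pbrm1 cKO. WT replicate 1 was the low library, and the groups were apart with or without it. Dusp4 rose by 1.19 on the log2 scale (SE 0.18, DESeq2 adjusted p = 2.69e-09), and by 0.99 without WT replicate 1. Dusp6 (ENSMUSG00000019960.8, chr10:99263231-99267489, plus strand) had 1442, 1649 and 1399 normalized counts in WT, against 1362, 1393 and 1377 in Pbrm1 cKO. The Pbrm1 cKO libraries were all slightly below the WT libraries. The log2 fold change was -0.12, with a 95% confidence interval of -0.32 to 0.08 (DESeq2 adjusted p = 0.425). Its upper bound lay below the lower bounds for Dusp4 (0.82) and Dusp5.

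The order of the phosphatase transcripts per length therefore differed between the groups. In WT, Dusp5 at 28.4 ± 1.59 RPKM lay next to Dusp6 at 32.4 ± 3.00, with Dusp4 at 4.96. In Pbrm1 cKO, Dusp5 at 99.7 ± 4.02 RPKM was over 3 times Dusp6 at 30.2 ± 0.406, with Dusp4 at 11.4. Of the summed level of the 3 genes, Dusp5 made up 43.5%, 41.8% and 44.5% in WT, compared with 71.7%, 70.0% and 69.9% in Pbrm1 cKO. Dusp6 fell in share from 49.2% ± 2.12 to 21.4% ± 0.822. Both differences were many times the spread between libraries, and both reached the smallest p the exact permutation test allows (two-sided p = 0.1, n = 3 each; 0.2 adjusted over the 10 shares compared). The Dusp4 share was 7.51% and 8.08%, with overlapping groups (p = 0.8 by the same exact test). Its difference of 0.577 points changed sign without WT replicate 1, to -0.297 points, and was 1.19 points without WT replicate 3.

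**Figure D3:**
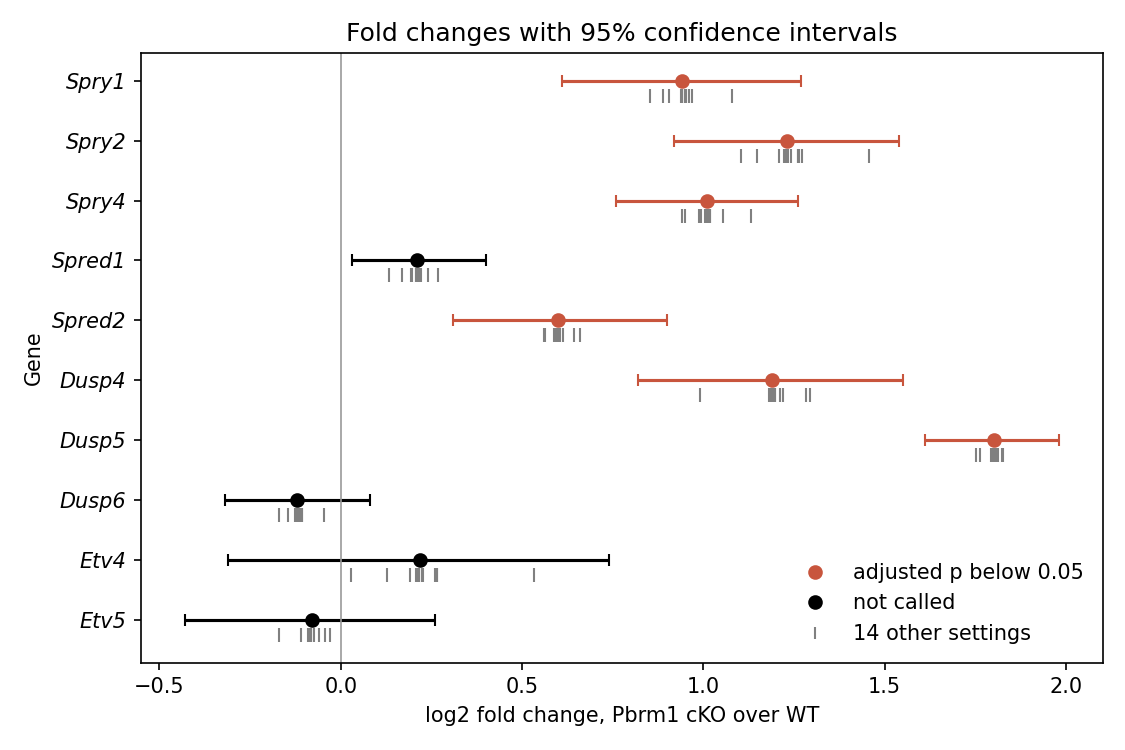
Log2 fold changes of Pbrm1 cKO over WT with 95% confidence intervals from DESeq2 (circles, n = 3 libraries a group) and the values under 14 other settings (grey ticks). Intervals for 6 called genes lie above 0, Dusp5 highest at 1.80, and those of Dusp6, Etv4 and Etv5 span 0.

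The ETS factors ETV4 and ETV5 are transcription factors rather than inhibitors, and neither gene was called. Etv5 (ENSMUSG00000013089.15, chr16:22381309-22439719, minus strand) had 175, 170 and 164 normalized counts in WT, against 181, 152 and 149 in Pbrm1 cKO, so that the groups overlapped. Its log2 fold change was -0.08 with a 95% confidence interval of -0.43 to 0.26 (DESeq2 adjusted p = 0.786). Etv4 (ENSMUSG00000017724.14, chr11:101769742-101785371, minus strand) had 130, 82.1 and 68.1 normalized counts in WT, against 113, 102 and 111 in Pbrm1 cKO.

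The Etv4 spread lay in the WT group, where replicate 1 was above every Pbrm1 cKO library and the other 2 were below all of them. The log2 fold change was 0.22, with an interval of -0.31 to 0.74 (DESeq2 adjusted p = 0.608). Without WT replicate 1 it was 0.53 with an adjusted p of 0.0902, which still was no call, and without WT replicate 3 it was 0.03. Both genes were low per length, at 2.04 and 2.40 RPKM for Etv4 and 2.80 and 2.68 for Etv5 in WT and Pbrm1 cKO.

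All 10 genes are protein-coding. On the opposite strand, gene models overlap Spry1, Spry4 and Dusp5, and the reads had been counted by strand, so these are kept apart as far as the library preparation kept strand. The nearest expression profiles to Dusp5, by distance of centred log2 values over the 6 libraries among 10985 genes, were those of Psap (distance 0.0556), Rassf2 (0.0656) and Adamtsl1 (0.0916). Psap had 4621, 5828 and 5223 normalized counts in WT, against 18826, 17769 and 17055 in Pbrm1 cKO. With 2 groups so far apart, a small distance mainly reflects a log2 fold change of like size, here 1.78 for Psap and 1.85 for Rassf2.

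Of 12 relatives, Spry3 had no reads in any library or was not matched by symbol, and is not analysed here. Of the 11 tested, 3 were higher and 2 were lower in Pbrm1 cKO, with a median log2 fold change of 0.06. By comparison, 41.0% of all genes in the abundance range of the feedback transcripts were called. Dusp9, which encodes a cytoplasmic ERK phosphatase of the same subgroup as DUSP6, had 312, 303 and 311 normalized counts in WT, against 110, 93.5 and 94.8 in Pbrm1 cKO (log2 fold change -1.64, SE 0.17, DESeq2 adjusted p = 2.98e-21). Dusp1, an immediate early gene whose product is a nuclear phosphatase that prefers p38 and JNK, fell from a mean of 1530 ± 138 to 721 ± 63.7 (log2 fold change -1.09, adjusted p = 3.79e-18). The nuclear and cytoplasmic enzymes therefore did not divide cleanly into higher and lower.

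The relatives that rose were phosphatases that act mainly on JNK and p38. Dusp10 rose from 343 to 670 in normalized counts (a log2 fold change of 0.97, DESeq2 adjusted p = 2.61e-10) and Dusp16 from 432 to 694 (0.68, adjusted p = 6.3e-06). Dusp8, named here after its values were seen to complete the count, rose from 154 to 244 (0.67, adjusted p = 0.000159). Etv1, the other gene of the PEA3 group, was close to the floor with means of 2.91 and 2.52 normalized counts, and Spred3 was at 157 and 180 with an adjusted p of 0.593.

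Among 16 other transcripts that respond to ERK signalling, 8 were higher and 1 was lower in Pbrm1 cKO, with a median log2 fold change of 0.35. Over all tested genes 15.9% were higher and 15.2% lower, and 41.0% were called in the abundance range of the feedback transcripts. Tested against a log2 fold change of 0.58 with a threshold of 0.1, 3 of the 16 were higher and 0 lower. Egr1, an immediate early zinc finger factor controlled by SRF and ETS factors, had 559, 575 and 655 normalized counts in WT, against 1517, 1600 and 1267 in Pbrm1 cKO (log2 fold change 1.29, SE 0.13, DESeq2 adjusted p = 9.79e-22). Egr2, of the same family, rose from 290 to 623 (log2 fold change 1.10, adjusted p = 7.78e-16). Epha2, an ephrin receptor, was the gene that fell, from 826 to 535 (log2 fold change -0.63, adjusted p = 3.36e-05). Like the 10 feedback transcripts, this list held called rises beside genes that were not called.

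**Figure D4:**
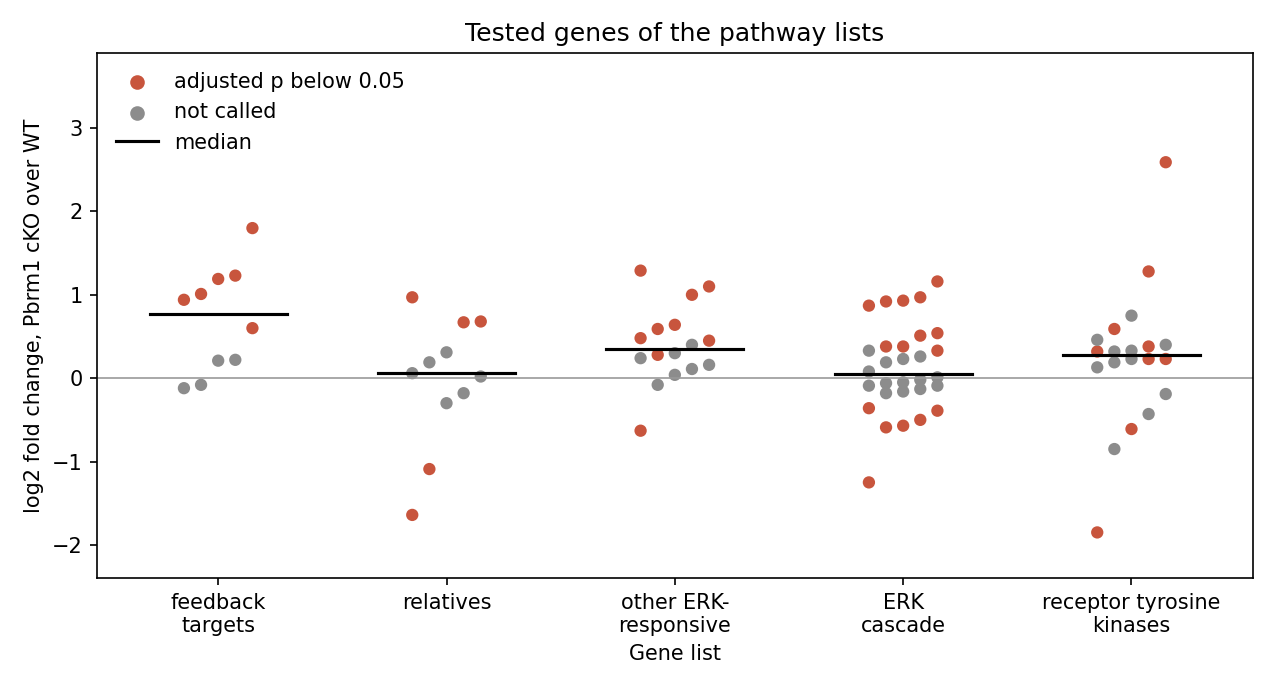
Log2 fold changes of Pbrm1 cKO over WT for every tested gene of the 10 feedback targets, 11 relatives, 16 other ERK-responsive transcripts, 30 genes of the ERK cascade and 20 receptor tyrosine kinases; red points passed the DESeq2 test and lines are medians. The median is 0.77 for the feedback targets and between 0.05 and 0.35 for the other lists.

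Of 30 genes of the cascade itself, from adaptors to ERK, 10 were higher and 6 were lower, with a median log2 fold change of 0.05. Over all tested genes 31.1% were called, in nearly equal parts higher and lower, and 41.0% in the abundance range of the feedback transcripts, so calls in both directions are not particular to this list or to the relatives. Without Pbrm1 cKO replicate 1 or without replicate 2, 6 were higher. Ksr1, a scaffold that brings Raf, MEK and ERK together, fell from 385 ± 10.2 to 162 ± 14.6 in normalized counts (a log2 fold change of -1.25, DESeq2 adjusted p = 8.49e-16), and the Ras relative Mras fell from 1030 to 685 (-0.59, adjusted p = 2.62e-05). Rras, another Ras relative, rose from 105 to 204 (0.97, adjusted p = 0.000247). The adaptor Grb2 had 140, 206 and 423 normalized counts in WT, against 583, 567 and 566 in Pbrm1 cKO. Its log2 fold change of 1.16 rested on a wide WT spread (DESeq2 adjusted p = 0.04), and the call was lost with independent filtering off (adjusted p = 0.0651) and without any 1 of WT replicates 1 and 2 or of the 3 Pbrm1 cKO libraries. The log2 fold change was 0.86 and 1.02 without WT replicates 1 and 2, and between 1.15 and 1.17 without a Pbrm1 cKO library.

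Of 22 receptor tyrosine kinase genes 20 were tested, of which 7 were higher and 2 lower, with a median log2 fold change of 0.28, near the 41.0% called among all genes in the abundance range of the feedback transcripts. The count of higher genes was 3 without Pbrm1 cKO replicate 1 and 4 without replicate 2, and that of lower genes was 4 without WT replicate 1 and 1 without any 1 of the other libraries. Csf1r, the receptor for the macrophage growth factor CSF1, rose from 420 ± 77.2 to 2540 ± 162 in normalized counts (a log2 fold change of 2.59, DESeq2 adjusted p = 1.62e-72), and Met, the hepatocyte growth factor receptor, from 151 to 365 (1.28, adjusted p = 1.93e-08). Flt1, a VEGF receptor of endothelium, fell from 270 ± 91.0 to 177 ± 14.5 (-0.61, adjusted p = 0.0425). That call was lost with edgeR (adjusted p = 0.0601), with independent filtering off (0.0692) and with the replicate block (0.0825), and without WT replicate 2 or 3 or any 1 of the Pbrm1 cKO libraries. The log2 fold change in these fits ranged from -0.66 to -0.41. Fgfr3, named after its values were seen because it is the other gene that fell, was low, at 28.2 and 7.80 normalized counts (-1.85, adjusted p = 0.00132).

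Markers of cell types other than stroma moved with the groups too, as the plot of marker lists shows. The 16 leukocyte markers summed to 4559, 9940 and 9631 normalized counts in WT, against 42118, 42066 and 43518 in Pbrm1 cKO. Of 15 tested, 14 were higher and none was lower by DESeq2, with a median log2 fold change of 2.14, where 15.9% of all tested genes were higher. The most abundant was Lyz2, the lysozyme gene of macrophages and neutrophils, at 3950 and 18800 normalized counts. The markers with the highest fold changes were Cd74, the invariant chain of antigen-presenting cells, at 846 and 7010 normalized counts, and the class II gene H2-Aa at 356 and 3120. Nkg7, a marker of cytotoxic lymphocytes, was at or under 3 reads in all libraries. The part of these markers in the rise of the 6 feedback transcripts was not tested.

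**Figure D5:**
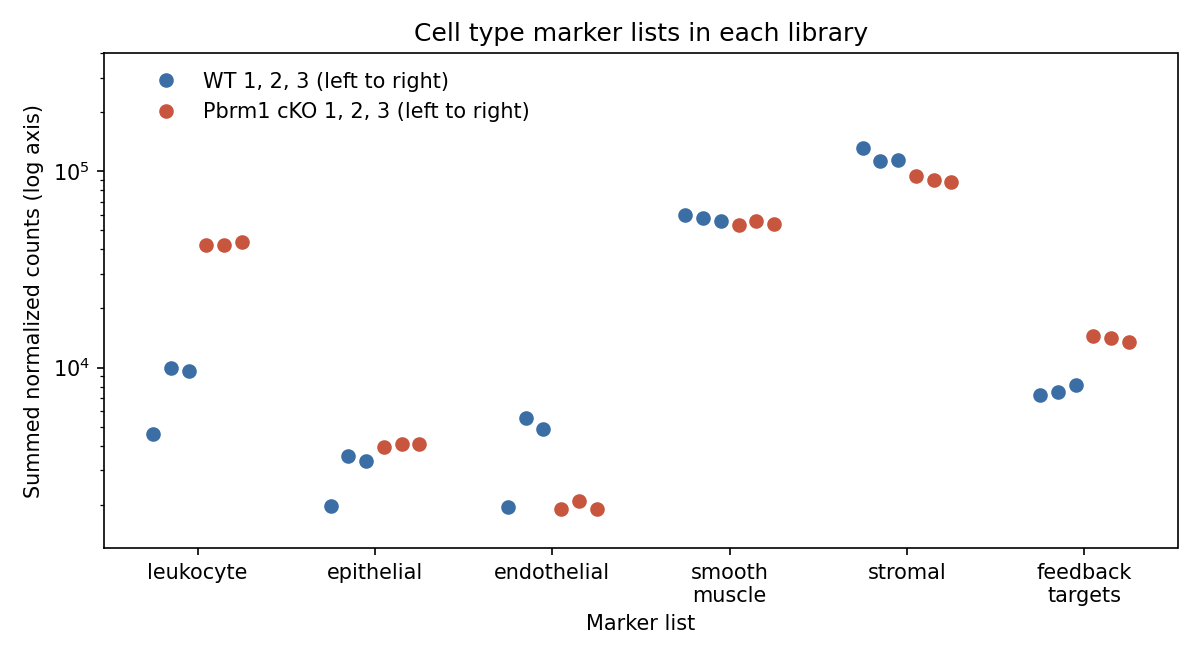
Summed normalized counts (log axis) of 5 cell type marker lists and of the 10 feedback targets in each library. The leukocyte sum is at most 9940 in WT and at least 42066 in Pbrm1 cKO, the feedback sum at most 8168 and at least 13519, and WT replicate 1 is the lowest WT library for leukocyte, epithelial and endothelial markers.

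The summed counts of the 10 feedback transcripts were 7283, 7474 and 8168 in WT and 14542, 14093 and 13519 in Pbrm1 cKO. Epithelial markers summed to 1982 to 3537 in WT and 3919 to 4091 in Pbrm1 cKO, with 5 of 15 tested higher and 0 lower by DESeq2, while Foxa2, which defines the glands, was at or under 3 reads in every library. Endothelial markers summed to 1939, 5549 and 4834 in WT and 1904 to 2096 in Pbrm1 cKO, with 1 of 12 higher and 4 lower. Of these 12 markers 11 were at their lowest WT value in WT replicate 1, Cdh5 being the exception. Smooth muscle markers summed to 55505 to 59912 and 53474 to 55565, with 0 of 9 tested higher and 4 lower by DESeq2. Stromal markers summed to 113347 to 130824 and 87764 to 94348, with 1 of 14 higher and 7 lower. Large parts of that sum were collagen genes that fell, Col1a1 from 23700 to 14600, Col3a1 from 13900 to 3100 and Col1a2 from 7660 to 4030. Pdgfra, the 1 called higher, went from 14500 to 17000. The calls in these marker lists are to be read beside those over all tested genes, 15.9% higher and 15.2% lower. In the abundance range of the feedback transcripts 41.0% were called in either direction. The leukocyte sum of WT replicate 1 was less than 50% of that of the other WT libraries. In the feedback transcripts, WT replicate 1 was the lowest WT library for 4 genes, all among the 6 called (Spry2, Spred2, Dusp4 and Dusp5), and the highest for 4, of which 1 was called (Spry1). Without WT replicate 1, 7 of the 10 were higher in Pbrm1 cKO, the 6 named above and Spred1.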

How the data were processed

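RNA-Seq read counts per gene were deposited as 1 table of whole-number counts for 6 libraries (3 WT and 3 Pbrm1 cKO). Per the labels and the file headers, the authors trimmed reads with cutadapt, aligned them with HISAT2 to GRCm38.p5 and counted them by strand with featureCounts 1.6.4 on GENCODE release 18. The labels name a strand-selecting total RNA kit, primed with random and poly(T) oligos, with depletion of targeted transcripts, whereas the study's methods describe mRNA purification and a TruSeq kit; both keep strand, and which applies here is not settled, which bears on RPKM. All 54232 genes were kept, and 54079 identifiers (99.7%) were matched to a symbol with GENCODE release 21.

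The main test was DESeq2 1.42.0 (R 4.3.3) on raw counts, Pbrm1 cKO against WT, with Benjamini-Hochberg adjustment over all tested genes and a threshold of 0.05. Normalized counts are counts divided by DESeq2 size factors; RPKM used the table's gene lengths. Shares of a family were compared by a two-sided exact permutation test. Intervals are 95% Wald intervals. edgeR 4.0.16, limma 3.58.1 and 12 other settings were alternatives. The depth of 13253575 to 18338667 counts a library set a floor of 3 counts.

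The 10 genes are given in full. From other pathway lists, at most the 2 highest and the 2 lowest called genes were named by rule, and from marker lists at most 2. These had a mean of at least 50 normalized counts. Further genes of these lists, such as Lyz2, Nkg7, Foxa2, Cdh5, the stromal genes, Dusp8 and Fgfr3, were named outside this rule. For Dusp5 the 3 nearest profiles were named, on log2 of counts plus 1. The genes and lists were chosen with earlier results of these data known. Promoters were 250 bases before to 50 after RefSeq starts.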

Additional observations from a re-analysis of the deposited data

How the results depend on the processing

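The number of feedback transcripts called higher was 6 in the main test, 4 when fold changes were tested against 0.58 (log2) with a threshold of 0.1, 7 with limma voom, and 6 to 7 when 1 library was left out; 0 were called lower in all 14 settings. Against 0.58, Spry1 (adjusted p = 0.379) and Spred2 (adjusted p = 1) were lost. Spred1 was called with limma voom (0.22, adjusted p = 0.0473) and without WT replicate 1. The difference in the Dusp4 family share, 0.577 points, ranged from -0.297 (WT replicate 1 left out) to 1.19 (WT replicate 3 left out); the cause was not tested. That of Etv4, 6.01 points, was 3.04 to 10.1 with 1 library left out. The other lists were recomputed after the data had been seen. Against 0.58, 0 relatives were higher, 3 other ERK-responsive transcripts were higher and 0 lower, 0 cascade genes were higher and 1 lower, and 2 receptors were higher and 0 lower. Receptors higher were 11 with limma voom, 3 with the gene length trend removed and 3 to 10 with 1 library left out. Receptors lower were 1 with edgeR, with independent filtering off and with the replicate block, and 1 to 4 with 1 library left out. Cascade genes higher were 6 to 10 with 1 library left out. Correlations of same-numbered libraries were 0.11, -0.05 and 0.00 over 10986 genes, and not every library correlated best with its own number. With 3 libraries a group, these values cannot show whether the samples were paired. With the replicate block, 2175 genes in all were higher and 1828 lower, and 6 feedback transcripts were higher. In all, 2774 and 2658 genes were called in the main test, and 699 and 563 against 0.58. Counting error was computed from the counts of the Pbrm1 cKO libraries. Of the 10, Etv4 had the highest, 9.12%, and its spread was 5.36% among those libraries and 34.9% among the WT libraries.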

Other observations

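The spread between libraries of the feedback transcripts was smaller in Pbrm1 cKO than in WT for 8 of the 10 genes, and the same was true of 71.2% of all tested genes. Dusp4 varied by 24.8% (coefficient of variation) among the WT libraries and by 0.496% among the Pbrm1 cKO libraries, where counting error alone would give 4.44%. Spry2 varied by 25.7% in WT and by 4.6% in Pbrm1 cKO, with a counting error of 1.46% in Pbrm1 cKO. Etv5 went the other way, at 3.24% in WT and 10.8% in Pbrm1 cKO. With 3 libraries a group these spreads are themselves uncertain, and they were not tested.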
